A study of Mus musculus with 6 samples.

Results

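The enzymes examined were 10 genes of prostaglandin, leukotriene and epoxide metabolism, chosen by name: Pla2g4a, Ptgs1, Ptgs2, Ptges, Ptges2, Hpgd, Ptgr1, Lta4h, Ephx1 and Ephx2, of 41388 genes in the deposited table. Lipoxygenases were not among them. RNA came from primary murine hepatocytes of C57BL/6J mice, isolated with collagenase and cultured overnight, then exposed for 24 h to 1000000 viral particles per 1000000 cells of adenovirus encoding either β-galactosidase (β-gal, replicates 1, 2 and 3) or ALOXE3 (replicates 7, 8 and 9). All 6 libraries therefore carried virus and a transgene, and no library came from cells without virus. The labels do not say whether replicates were separate cultures or animals, so p-values measure only the spread between these samples, which may be technical. Levels are in RPKM, a read count corrected for gene length and for the depth of its library.

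The oxylipin enzymes act on polyunsaturated fatty acids cut from membrane phospholipids. Cytosolic phospholipase A2 (Pla2g4a) releases arachidonic acid, the cyclooxygenases (Ptgs1 and Ptgs2) turn it into prostaglandin H2, and terminal synthases such as Ptges and Ptges2 make prostaglandin E2, which Hpgd and Ptgr1 inactivate in sequence. Lta4h makes leukotriene B4 from leukotriene A4, and the epoxide hydrolases Ephx1 (microsomal) and Ephx2 (soluble) open epoxides to diols. The ALOXE3 protein, the epidermal lipoxygenase eLOX3, isomerizes fatty acid hydroperoxides to epoxyalcohols, and soluble epoxide hydrolase is known to open such epoxides as well.

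Aloxe3 itself was read first, as a check of the labels. Its level was 2.04, 2.06 and 1.74 RPKM in the β-gal libraries and 42.3, 45.8 and 56.4 RPKM in the Aloxe3 libraries, a log2 difference of 4.05 (SE 0.10, adjusted p = 4.74e-06, limma). The libraries held 25521908 to 32431318 reads, and a single read on 1 kb of exon stood for 0.0308 to 0.0392 RPKM. Among the markers that define hepatocytes, Alb (albumin) was at 4524 RPKM in β-gal and 4445 RPKM in Aloxe3 libraries, whereas Cps1, the first enzyme of the urea cycle, was low at 0.985 ± 0.069 RPKM in β-gal and 1.496 ± 0.181 RPKM in Aloxe3 libraries (SD, n = 3). Tat (tyrosine aminotransferase) was at 0.278 ± 0.0778 and 0.578 ± 0.122 RPKM (SD, n = 3), and both were higher in every Aloxe3 library than in any β-gal library. Ttr (124 and 101 RPKM) and Serpina1a (52.2 and 48.3 RPKM, a gene with near-identical copies) were lower in every Aloxe3 library, and for the other 6 of the 10 hepatocyte markers the groups overlapped. Cps1, Tat and Serpina1a were named after their values were seen.

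None of the oxylipin enzymes passed the test for a change with Aloxe3. Of the 10, 8 had a mean of at least 0.5 RPKM and were tested, and 0 of these 8 passed an adjusted p of 0.05 in limma, against 0.394% of the 12693 genes tested. At an unadjusted p under 0.05 the count was also 0 of 8, against 12.7% of genes tested, and with voom, which models the derived reads, 0 of 8 passed the adjusted threshold. The groups overlapped in all 10 genes, whereas in 19.9% of the genes tested the 3 Aloxe3 libraries lay wholly above or wholly below the 3 β-gal libraries. The point estimates were positive for 4 genes (Ptgs2, Hpgd, Ephx1 and Ephx2) and negative for 4 (Ptgs1, Ptges2, Ptgr1 and Lta4h), with a median log2 difference of 0.0115 beside 0.0049 over all genes tested. Their differences are given below with 95% intervals, which show what size of change the 6 libraries could still hold. All log2 differences are of log2(RPKM + 1), a scale that understates the change of genes near or under 1 RPKM, and for those genes the fold interval from voom is given too. For Ptges and Pla2g4a it comes from voom without the filter, an alternative chosen after seeing the data.

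**Figure D1:**
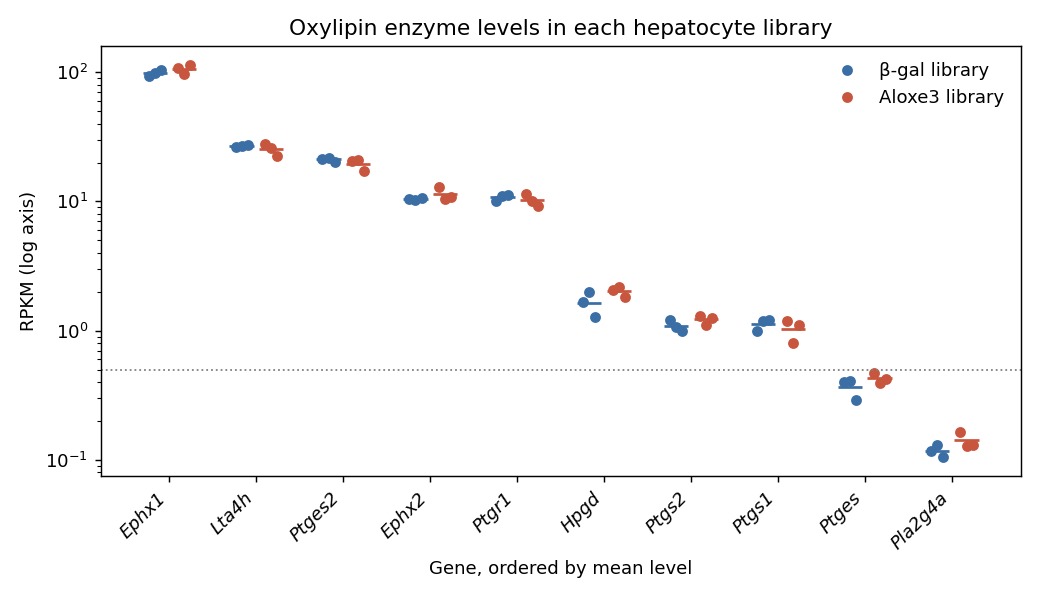
RPKM of each of the 10 enzymes in the 6 libraries on a shared log axis, ordered by mean level. Points are libraries and short lines are group means (n = 3 per group). The dotted line is the filter at 0.5 RPKM. For every gene the β-gal and Aloxe3 points overlap.

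The promoters of the cyclooxygenase genes and of Ephx1 are shown because these genes mark the inducible, constitutive and most abundant members of the set. RefSeq gave the 250 bases before a transcription start (GRCm38.p6) for 9 of the 10 genes. Each was searched on both strands for 7 motifs. The element that positions many starts was searched as TATAAA, the box bound by nuclear factor Y as CCAAT, the E-box as CACGTG, and the box bound by Sp1 as GGGCGG. The core of the cyclic AMP response element was searched as TGACG, the C/EBP motif as TTGCNNAA and the antioxidant response element as TGACNNNGC, whose first letters are those of TGACG, so that both can match at the same place. Matches are printed in capitals, 5′ to 3′ along the strand of the gene, for Ptgs2 at chr1:150099781-150100030 (plus strand), Ptgs1 at chr2:36230176-36230425 (plus strand) and Ephx1 at chr1:181017570-181017819 (minus strand).
Ptgs2: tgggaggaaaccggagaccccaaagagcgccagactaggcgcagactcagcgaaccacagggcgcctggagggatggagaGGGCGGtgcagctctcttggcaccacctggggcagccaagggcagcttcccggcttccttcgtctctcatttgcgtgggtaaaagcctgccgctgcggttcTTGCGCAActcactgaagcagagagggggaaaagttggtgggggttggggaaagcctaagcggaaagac
Ptgs1: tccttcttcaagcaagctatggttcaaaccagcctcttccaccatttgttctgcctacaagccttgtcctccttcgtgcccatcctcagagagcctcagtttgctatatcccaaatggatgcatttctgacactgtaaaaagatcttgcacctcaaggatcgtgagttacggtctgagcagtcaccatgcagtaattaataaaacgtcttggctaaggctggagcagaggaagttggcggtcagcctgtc
Ephx1: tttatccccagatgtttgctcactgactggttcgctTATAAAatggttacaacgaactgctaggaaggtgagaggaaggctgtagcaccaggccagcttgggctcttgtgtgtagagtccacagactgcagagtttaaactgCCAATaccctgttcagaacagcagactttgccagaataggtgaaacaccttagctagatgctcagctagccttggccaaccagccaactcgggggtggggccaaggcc

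The Ptgs2 window held an Sp1 box and a C/EBP motif, found in 32.7% and 9.56% of 32851 promoters of the same length. No letters of the 7 motifs occurred in the Ptgs1 window. In Ephx1 TATAAA (12.4% of promoters) and a nuclear factor Y box (33.8%) matched. Of the remaining genes with an entry, Lta4h held 2 nuclear factor Y boxes, Ptges 2 Sp1 boxes, Hpgd 1 Sp1 box, Ptges2 an E-box (6.02% of promoters), and Ptgr1 2 Sp1 boxes, a nuclear factor Y box and a C/EBP motif. Pla2g4a had entries for 2 starts, 1 of them with TATAAA. No member's window held the TGACG core (17.8% of promoters) or the antioxidant response element (10.2%).

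Arachidonic acid release was represented by Pla2g4a (ENSMUSG00000056220, chr1:149829618-149961290, minus strand, GRCm38), the lowest of the 10. Its level was 0.116, 0.130 and 0.106 RPKM in β-gal and 0.166, 0.129 and 0.130 RPKM in Aloxe3 libraries, or 20 to 27 reads per library. Replicate 7 of Aloxe3 was highest, while the other Aloxe3 libraries lay inside the β-gal range. The gene was under the filter, and a fit without the filter gave a log2 difference of 0.03 (95% interval -0.03 to 0.09, adjusted p = 0.766, limma). As fold, which that scale compresses at this level, the ratio of means was 1.20, and the interval from voom without the filter was 0.817 to 1.73. Ptgs2 lies 138.7 kb from Pla2g4a on chromosome 1, with 0 protein-coding genes annotated between them.

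The cyclooxygenases were both expressed at about 1 RPKM. Ptgs1 (ENSMUSG00000047250, chr2:36230426-36252272, plus strand), the constitutive enzyme, was at 0.990, 1.18 and 1.20 RPKM in β-gal and 1.18, 0.805 and 1.11 RPKM in Aloxe3 libraries, on 95 to 149 reads per library. Replicate 8 of Aloxe3 was lowest of all 6, and the other Aloxe3 libraries lay inside the β-gal range. The log2 difference was -0.07 (SE 0.09, 95% interval -0.27 to 0.14, adjusted p = 0.789, limma), and voom bounded the fold between 0.722 and 1.12. The difference turned to 0.0154 without replicate 8 of Aloxe3 and was -0.12 without replicate 7. The annotation has 148 bases of Ptgs1 exon in common with Gm43621 on the opposite strand.

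Ptgs2 (ENSMUSG00000032487, chr1:150100031-150108227, plus strand), the enzyme that inflammatory signals induce, was at 1.21, 1.06 and 0.989 RPKM in β-gal and 1.30, 1.11 and 1.26 RPKM in Aloxe3 libraries. Replicates 7 and 9 of Aloxe3 lay above all β-gal libraries, and replicate 8 lay inside their range. With 134 to 178 reads per library, the log2 difference was 0.09 (SE 0.07, 95% interval -0.07 to 0.25, adjusted p = 0.611, limma), and the fold interval from voom was 0.942 to 1.33. The difference ran from 0.06 without replicate 3 of β-gal to 0.13 without replicate 1. The spread between β-gal libraries (CV 10.1%) was little above the 7.99% that counting alone gives at this depth.

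The terminal prostaglandin E synthases differed in level by more than an order of magnitude. Ptges2 (ENSMUSG00000026820, chr2:32395896-32405772, plus strand), the constitutive membrane-associated synthase, was at 21.4, 21.8 and 20.3 RPKM in β-gal and 20.5, 20.99 and 17.1 RPKM in Aloxe3 libraries. Only replicate 9 of Aloxe3 fell outside the β-gal range, and it was the lowest. The log2 difference of -0.11 (SE 0.08, 95% interval -0.29 to 0.06, adjusted p = 0.562, limma) was -0.02 without that library and -0.17 without replicate 8 of Aloxe3. Ptges (ENSMUSG00000050737, chr2:30889471-30929863, minus strand), the inducible microsomal synthase that acts with Ptgs2, was at 0.402, 0.408 and 0.292 RPKM in β-gal and 0.469, 0.393 and 0.424 RPKM in Aloxe3 libraries. Replicate 3 of β-gal was lowest and replicates 7 and 9 of Aloxe3 were highest. It was under the filter, and without it the log2 difference was 0.06 (95% interval -0.06 to 0.18, adjusted p = 0.766, limma) on 34 to 52 reads per library. The ratio of means was 1.17, with a fold interval of 0.863 to 1.57 from voom without the filter.

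Hpgd, the dehydrogenase that takes the first step in prostaglandin inactivation, had the largest point estimate of the 8 tested genes. It lies at chr8:56294585-56321043, plus strand (ENSMUSG00000031613). Its level was 1.68, 1.99 and 1.28 RPKM in β-gal and 2.07, 2.18 and 1.83 RPKM in Aloxe3 libraries, and replicates 7 and 8 of Aloxe3 lay above all β-gal libraries. The log2 difference was 0.20 (SE 0.10, 95% interval -0.04 to 0.44, adjusted p = 0.464, limma), and the fold interval from voom reached from 0.977 to 1.58. Replicate 3 of β-gal, at 65 reads, was far the lowest, and without it the difference was 0.10. Without replicate 2 of β-gal it was 0.29.

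Ptgr1 (ENSMUSG00000028378, chr4:58965439-58987119, minus strand), which reduces the keto-prostaglandins that Hpgd makes and also oxidizes leukotriene B4, was at 10.02, 11.03 and 11.3 RPKM in β-gal and 11.4, 10.0 and 9.21 RPKM in Aloxe3 libraries. The Aloxe3 libraries held both the highest and the lowest value. Its log2 difference was -0.07 (SE 0.08, 95% interval -0.25 to 0.10, adjusted p = 0.723, limma). It was -0.15 without replicate 7 of Aloxe3 and -0.0096 without replicate 9.

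Lta4h (ENSMUSG00000015889, chr10:93453411-93484875, plus strand) was at 26.5, 26.7 and 27.6 RPKM in β-gal and 27.8, 25.9 and 22.6 RPKM in Aloxe3 libraries. The β-gal libraries lay close together (CV 2.07%), whereas the Aloxe3 libraries spread on both sides of them (CV 10.3%). The log2 difference of -0.08 (SE 0.07, 95% interval -0.24 to 0.08, adjusted p = 0.652, limma) was -0.004 without replicate 9 of Aloxe3 and -0.15 without replicate 7. Ptges2, Lta4h and Ptgr1 all had their lowest value in replicate 9 of Aloxe3, as did 30% of the genes tested.

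Ephx1 (ENSMUSG00000038776, chr1:180976210-181020904, minus strand), the microsomal hydrolase that hepatocytes use against foreign and fatty acid epoxides, was by far the most abundant of the set. Its level was 94.1, 98.8 and 104 RPKM in β-gal and 108, 97.6 and 113 RPKM in Aloxe3 libraries. Replicates 7 and 9 of Aloxe3 lay above all β-gal libraries and replicate 8 between replicates 1 and 2 of β-gal. Here counting was not the limit, since 5529 to 6425 reads fell on the gene in each library. The log2 difference of 0.10 (SE 0.06, adjusted p = 0.543, limma) had a 95% interval of -0.05 to 0.24, or 0.969-fold to 1.18-fold. Without replicate 9 of Aloxe3 the difference was 0.05, without replicate 1 of β-gal 0.06 and without replicate 8 of Aloxe3 0.16.

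Ephx2 (ENSMUSG00000022040, chr14:66084374-66124500, minus strand), the soluble hydrolase of fatty acid epoxides, was at 10.5, 10.2 and 10.7 RPKM in β-gal and 12.9, 10.5 and 10.8 RPKM in Aloxe3 libraries. Replicate 7 of Aloxe3 stood alone at the top, and the others lay inside or just above the β-gal range. The log2 difference was 0.10 (SE 0.07, 95% interval -0.06 to 0.27, adjusted p = 0.578, limma) and was 0.02 without that library and 0.15 without replicate 8 of Aloxe3.

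**Figure D2:**
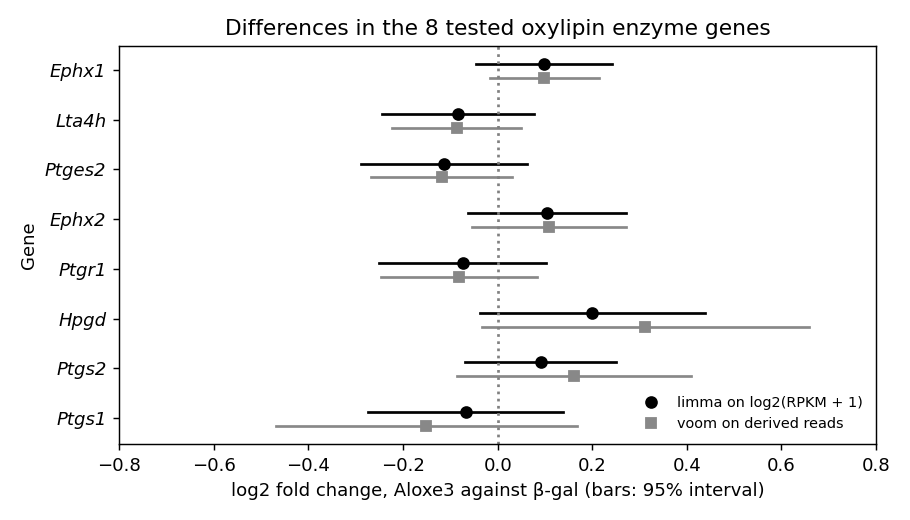
Log2 difference of each tested enzyme, Aloxe3 minus β-gal, on the log2(RPKM + 1) scale, with its 95% interval from limma (n = 3 per group). All 8 limma intervals include 0, and Hpgd has the widest of them. Grey squares with bars are the log2 differences and 95% intervals from voom on derived reads.

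**Figure D3:**
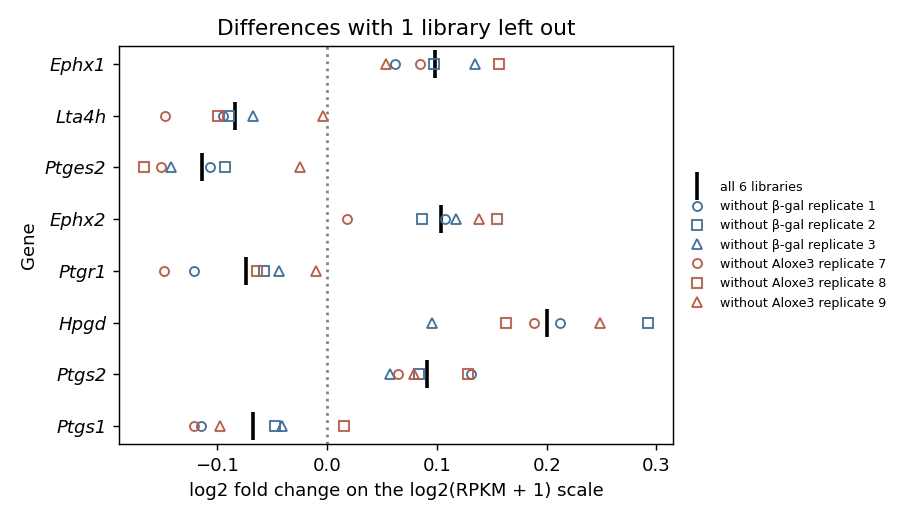
The same log2 differences refitted with each library left out in turn. Leaving out replicate 9 of Aloxe3 brings Ptges2, Lta4h and Ptgr1 close to 0, leaving out replicate 7 moves Lta4h and Ptgr1 away from it, and Ptgs1 changes sign without replicate 8 of Aloxe3.

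Levels, compared per length, ordered the enzymes in the same way in most libraries. Ephx1 averaged 102.6 RPKM over the 6 libraries (96.5th percentile of the genes tested) and made up 56.4% to 63.7% of the summed RPKM of the 10 genes in a library. Lta4h (26.2 RPKM) and Ptges2 (20.3 RPKM) followed, and each lay above the next gene in all 6 libraries with ranges that did not overlap. Ephx2 (10.9 RPKM) and Ptgr1 (10.5 RPKM) did not differ beyond their spread, since Ephx2 was higher in 4 of 6 libraries. Hpgd (1.84 RPKM) was above Ptgs2 in 6 of 6 libraries, although their ranges over libraries overlapped. Ptgs2 (1.15 RPKM) and Ptgs1 (1.08 RPKM) could not be ordered, as Ptgs2 was higher in 4 of 6. Ptges (0.398 RPKM) and Pla2g4a (0.130 RPKM) were lowest. The summed level of the 10 genes was 166.9 to 177.8 RPKM in β-gal and 169.7 to 185.8 RPKM in Aloxe3 libraries.

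Ratios of genes within a library do not depend on library scaling, and 4 were compared. The ratio of Ptgs2 to Ptgs1 was 1.22, 0.899 and 0.823 in β-gal and 1.10, 1.37 and 1.13 in Aloxe3 libraries, a log2 difference of 0.31 (exact two-sided permutation p = 0.3, adjusted 0.4 over the 4 ratios). Ptges over Ptges2, the inducible over the constitutive synthase, was 0.0188, 0.0187 and 0.0144 in β-gal and 0.0228, 0.0187 and 0.0248 in Aloxe3 libraries (log2 difference 0.35, exact permutation p = 0.2, adjusted 0.4). The groups overlapped for both ratios. Leaving out a library moved the difference for the cyclooxygenases between 0.19 (without replicate 3 of β-gal) and 0.48 (without replicate 1 of β-gal), and that for the synthases between 0.23 (without replicate 3 of β-gal) and 0.47 (without replicate 8 of Aloxe3). Hpgd over Ptgr1, the first over the next inactivating enzyme, was 0.167, 0.181 and 0.113 in β-gal and 0.182, 0.218 and 0.198 in Aloxe3 libraries. These groups did not overlap, but replicates 2 of β-gal and 7 of Aloxe3 were nearly equal, and the log2 difference of 0.40 had the smallest p that 3 against 3 libraries allow (exact permutation p = 0.1, adjusted 0.4). It was 0.19 without replicate 3 of β-gal, the library with the low Hpgd value, and 0.53 without replicate 2 of β-gal. The ratio of Ephx1 to Ephx2 was 8.94, 9.70 and 9.75 in β-gal and 8.40, 9.32 and 10.5 in Aloxe3 libraries (log2 difference -0.01, exact permutation p = 1, from -0.0961 to 0.0647 with a library left out).

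**Figure D4:**
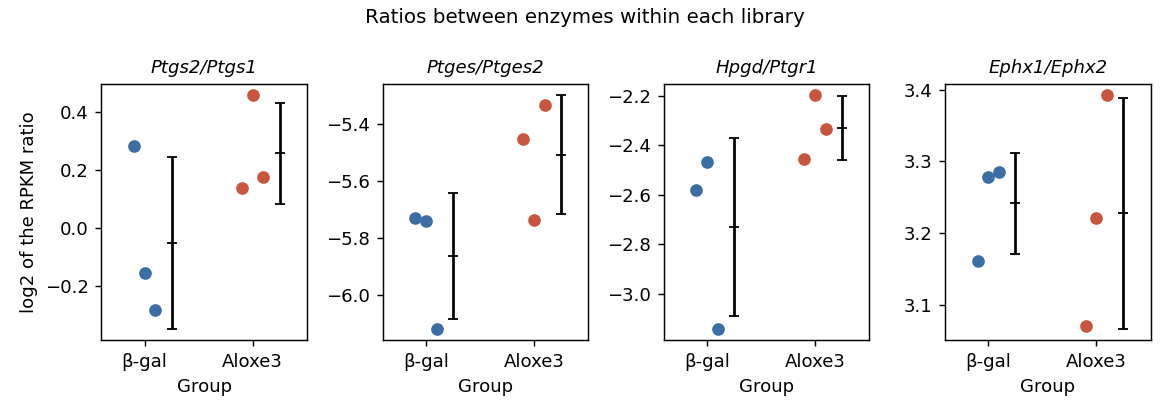
Log2 ratios of 4 gene pairs within each library, with the group mean and SD (n = 3 per group). For Hpgd over Ptgr1 the Aloxe3 points lie above the β-gal points, and for the other 3 pairs the groups overlap.

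The rest of the eicosanoid pathway was read from a list of 83 genes in 10 roles, of which 37 were tested. As for the enzymes above, 0 of 37 passed the adjusted threshold in either direction. Point estimates were positive for 22 and negative for 15, and the median log2 difference was 0.0095 beside 0.0049 over all genes tested. At an unadjusted p under 0.05 there were 4 higher and 1 lower, or 5 of 37 beside the 12.7% of all genes tested, and groups did not overlap for 7 of 37, near the background of 19.9%. The 5 with an unadjusted p under 0.05, chosen for naming after their values were seen, were Akr1c14, Cyp2c70, Acsl4, Zadh2 and Pla2g15, with log2 differences of 0.21, 0.24, 0.11, 0.08 and -0.16. The smallest adjusted p among them was 0.249 for Akr1c14 (limma).

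Upstream of the cyclooxygenases, 7 of 19 phospholipase A2 genes and all 6 genes of arachidonate supply reached the filter, and 0 of these passed the threshold. The other 12 phospholipase genes were under the filter, 3 of them listed at 0. Pla2g6, a calcium-independent phospholipase A2, was at 21.4 RPKM in β-gal and 22.1 RPKM in Aloxe3 libraries, and Pla2g12a, a secreted form, at 22.4 and 23.1 RPKM. The desaturases that make arachidonic acid, Fads1 and Fads2, were at 49.5 and 46.2 RPKM in β-gal and 49.8 and 47.7 RPKM in Aloxe3 libraries. Ptges3, the cytosolic prostaglandin E synthase and Hsp90 co-chaperone, stood at 28.3 and 30.0 RPKM, above Ptges2, and Cbr1, a carbonyl reductase that acts on prostaglandins, at 28.7 and 28.9 RPKM.

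Receptors were scarce. Of 9 prostanoid receptor genes 1 was tested, Ptger1 at 4.22 RPKM in β-gal and 4.13 RPKM in Aloxe3 libraries, a level that is uncertain because the libraries did not mark strand. Ptger4 was at 0.354 and 0.334 RPKM. None of the 4 leukotriene receptor genes reached the filter, and Ltb4r2 and Ltb4r1, which bind the product of Lta4h, were at 0.184 and 0.0909 RPKM in β-gal and 0.156 and 0.141 RPKM in Aloxe3 libraries. In contrast, the prostaglandin carriers Slco2a1 (uptake) and Abcc4 (efflux) were at 35.0 and 26.9 RPKM in β-gal and 34.0 and 28.0 RPKM in Aloxe3 libraries.

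Of the enzymes beside Lta4h and the epoxide hydrolases, Ltc4s, which makes leukotriene C4, was at 0.373 and 0.484 RPKM and Mgst3, a microsomal glutathione transferase, at 7.18 and 7.26 RPKM. The omega-hydroxylases Cyp4f13 (14.1 and 14.1 RPKM) and Cyp4a12a (3.56 and 3.45 RPKM, uncertain because a near-identical copy of the gene exists) and the epoxygenases Cyp2j6 (17.8 and 18.1 RPKM) and Cyp2c44 (10.7 and 10.4 RPKM) had means near each other in β-gal and Aloxe3 libraries. Other genes listed with the epoxide hydrolases, whose activity was not examined here, were far under Ephx1 and Ephx2, with Mest at 0.925 and 1.06 RPKM and Ephx3 at 0.299 and 0.310 RPKM.

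**Figure D5:**
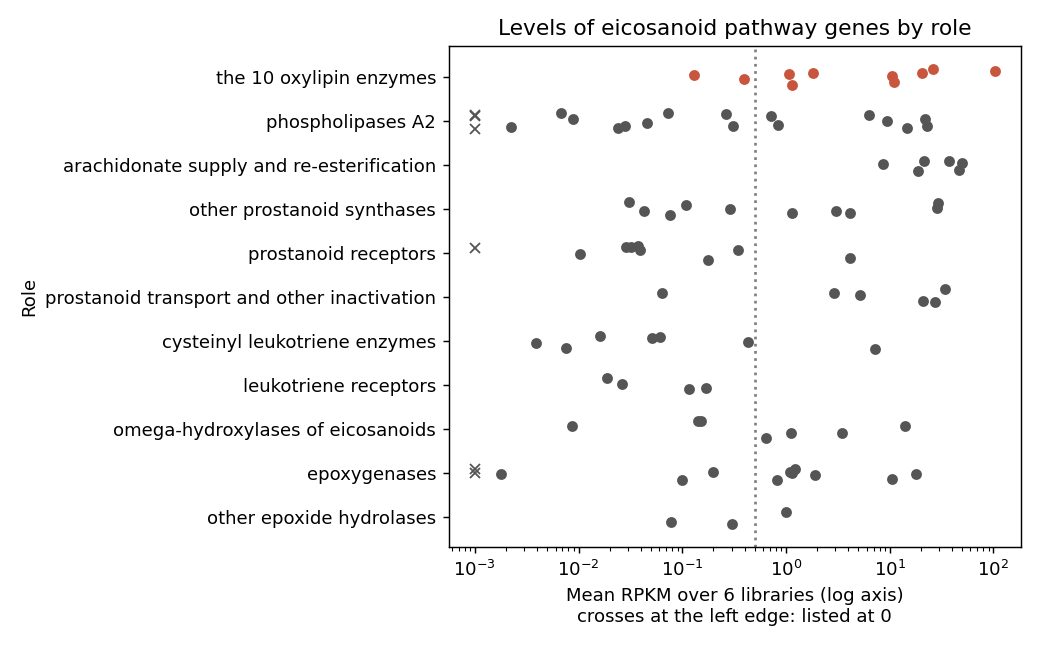
Mean RPKM over the 6 libraries (log axis) of the 10 enzymes and of 83 other pathway genes by role. The dotted line is the filter at 0.5 RPKM and crosses at the left edge are genes listed at 0. All 4 leukotriene receptors and 8 of 9 prostanoid receptors lie left of the line.

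Other cell types of the liver also express cyclooxygenases, and in bulk RNA fewer cells of a type and less RNA per cell cannot be told apart. The summed level of 10 Kupffer cell markers was 154.4 to 159.2 RPKM in β-gal and 135.6 to 149.9 RPKM in Aloxe3 libraries, most of it Cd68 (147.9 and 133.1 RPKM), and without Cd68 it was 7.23 to 10.7 and 6.81 to 8.88 RPKM. Platelet markers, of interest because platelets carry Ptgs1, summed to 2.16 to 2.41 RPKM in β-gal and 2.73 to 2.78 RPKM in Aloxe3 libraries, with Itga2b highest and Gp6 listed at 0. Hepatocyte markers, nearly all of it Alb, summed to 4987 to 5015 RPKM in β-gal and 4797 to 4971 RPKM in Aloxe3 libraries. The Kupffer, platelet and hepatocyte sums did not overlap between groups, whereas the Kupffer sum without Cd68 did. Their part in the levels of the enzymes was not tested. Sums for endothelial (38.0 to 44.2 and 37.2 to 43.0 RPKM), stellate (56.7 to 60.8 and 55.9 to 62.2 RPKM) and neutrophil markers (0.404 to 0.536 and 0.371 to 0.533 RPKM) overlapped between groups, with Lrat, Mpo and Elane listed at 0. Nearly all of the stellate sum was a single gene, Ecm1 (mean 55.4 RPKM in β-gal and 55.6 RPKM in Aloxe3 libraries), so it says little about the other stellate markers. Cholangiocyte markers, led by Spp1, summed to 1527 to 1609 RPKM in β-gal and 1596 to 1733 RPKM in Aloxe3 libraries. Of 33 marker genes tested 1 passed the adjusted threshold in limma, against 0.394% of all genes tested, the hepatocyte gene Ttr (transthyretin), which was lower at 101 ± 1.06 RPKM in Aloxe3 than at 124 ± 6.46 RPKM in β-gal libraries (SD, n = 3; log2 difference -0.30, adjusted p = 0.0448, limma). With voom 2 passed, Ttr and, in the other direction, Cps1 (adjusted p = 0.0138 with voom and 0.161 in limma), against 1.36% of all genes.

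Over the 6 libraries, Ptgr1 was most like Lta4h in its pattern (Pearson r = 0.897), and Ptges2 was also most like Lta4h (r = 0.838). For Ptgs2 and Ephx2 the closest member was the other of them (r = 0.629), for Ptgs1 it was Ptgr1 (r = 0.523), for Ephx1 it was Ptgs1 (r = 0.519), and for Hpgd it was Ptgs2 (r = 0.481). Among all genes tested, Syde2 (r = 0.987), Gm10169 (r = 0.982) and Cep41 (r = 0.982) were closest to Ptgs2, and Hdac7 (r = 0.990), Tada3 (r = 0.986) and ENSMUSG00000074661 (r = 0.985) to Ephx1. These are descriptions over 6 points that share depth and library scaling, taken as the highest of many, and carry no p.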

How the data were processed

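RNA from 3 β-gal and 3 Aloxe3 hepatocyte libraries was sequenced as single reads of 50 bases in a single run. The authors aligned reads with STAR 2.0.4b to GRCm38.p2 with Ensembl release 76 genes, counted unique unambiguous reads with featureCounts 1.4.5, and deposited RPKM values for 41388 genes. How counts became RPKM is not given in the sources used here. The protocol did not mark strand.

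Groups came from the sample labels. Symbols and coordinates came from GENCODE M21 (GRCm38, 40254 identifiers matched). Reads were derived from the steps of the values (tolerance 0.02). For Ptges2, Hpgd, Lta4h, Ephx1 and Ephx2 the smallest length giving whole reads was used, so their reads are known up to a common factor. Intervals cover the spread between libraries.

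Genes averaging 0.5 RPKM or more (12693) entered a limma fit (version 3.58.1, R 4.3.3, eBayes trend on) of log2(RPKM + 1), with Benjamini-Hochberg adjustment at 0.05, and single ratios with two-sided exact permutation tests (smallest p 0.1). The scripts were tested on simulated data. The members and lists were chosen with earlier results of these data known. Genes named were Aloxe3, the members, the 2 highest genes of each pathway role, the highest of each other list, every gene of these past the threshold, and the genes most like a member by Pearson r. Some results are not reported here. The alternatives were a pseudocount of 0.1, no filter, a filter at 5 RPKM, median rescaling, quantile normalization, eBayes without trend, each library left out, and voom. Voom without the filter was added after seeing the data.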

Additional observations from a re-analysis of the deposited data

How the results depend on the processing

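The count of members past the adjusted threshold was 0, and so was that of pathway genes, under all 14 alternatives. At an unadjusted p under 0.05 the alternatives gave 0 to 1 members and 2 to 10 pathway genes, from sets of unlike size. The 10 were of 77 pathway genes with voom without the filter, beside 2589 of 24988 genes over all. With the filter at 5 RPKM there were 2 of 21, beside 1004 of 7366. The smallest adjusted p of a member was 0.349 (Lta4h without replicate 7 of Aloxe3, limma). In the 63 member results from alternatives other than a left-out library, the direction and the side of the threshold were those reported, and this also held in 47 of 48 with a library left out. The exception was Ptgs1, whose log2 difference ran from -0.121 to 0.0154 and was positive without replicate 8 of Aloxe3. The log2 difference of Ephx1 over Ephx2 ran from -0.0961 to 0.0647 over the left-out libraries and was positive without replicate 2 or 3 of β-gal or replicate 7 of Aloxe3. Over all genes, 50 passed the threshold, 7 did without the filter (24989 genes tested), 173 did with voom and 169 with voom without the filter (chosen after seeing the data), and 6 to 19 did with any 1 library left out, where fewer samples remain. The cause of the difference with voom was not tested. No paired analysis was possible because the groups share no replicate number (1 to 3 and 7 to 9). Depth limits Pla2g4a and Ptges most, at 20 to 52 reads per library.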

Other observations

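Lists of genes controlled by transcription factors that respond to oxylipins or oxidative stress were read for context. Of 18 NRF2 targets tested, 0 passed the adjusted threshold in limma, 3 were higher and 1 lower at an unadjusted p under 0.05 (12.7% of all genes tested were past it in either direction), and 1 passed with voom, against 1.36% of all genes. That gene was Gclc, the catalytic subunit of the first enzyme of glutathione synthesis, named after its values were seen. It was at 73.9, 86.6 and 92.3 RPKM in β-gal and 119.5, 117 and 101 RPKM in Aloxe3 libraries, groups that did not overlap (log2 difference 0.41, adjusted p = 0.161 in limma and 0.00601 with voom). The highest of them, Osgin1, an oxidative stress-induced growth inhibitor, was at 867 RPKM in β-gal and 919 RPKM in Aloxe3 libraries. Plin2, the lipid droplet coat protein and the highest of a list of PPARa targets, was at 698 RPKM in β-gal and 606 RPKM in Aloxe3 libraries (adjusted p = 0.237 in limma and 0.03 with voom).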
